A study of Mus musculus with 16 samples.

Results

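The mitochondrial enzymes that break down the branched-chain amino acids leucine, isoleucine and valine were followed through their transcripts in mouse hearts. The 10 genes were chosen by name, with earlier results of these data known. They are the entries of the deposited tables called Bcat2, Bckdha, Bckdhb, Dbt, Bckdk, Ppm1k, Ivd, Mccc1, Mccc2 and Acadsb, and all 10 were found among the 24371 genes listed. All 10 also passed the filter on low counts, which left 14607 genes to test. The study sequenced 16 libraries of heart RNA from mice in which heart failure with preserved ejection fraction (HFpEF) had been modelled. They ate a high-fat diet for 12 weeks and were given L-NAME, which blocks nitric oxide synthases. Every group carried this model, so no healthy heart enters any comparison. The genotype was Gpr91fl/fl, in which the succinate receptor gene (symbol Sucnr1) is flanked by loxP sites, or Myh6Cre Gpr91fl/fl, in which Cre is driven by the Myh6 promoter of cardiomyocytes. Each genotype was given succinate or not, which made 4 groups of 4 libraries: Gpr91fl/fl with HFpEF, Gpr91fl/fl with HFpEF and succinate, Myh6Cre Gpr91fl/fl with HFpEF, and Myh6Cre Gpr91fl/fl with HFpEF and succinate. They are called floxed and Cre hearts here, after their labels. The labels give no dose of succinate, sex or age, and no group with Cre but without the floxed alleles is among these samples.

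Branched-chain amino acids are not broken down mainly in the liver but largely in muscle, heart, kidney and fat, because their first enzyme, the mitochondrial aminotransferase encoded by Bcat2, is abundant there. The branched-chain keto acids it makes are committed to oxidation by the branched-chain keto acid dehydrogenase complex, built from a decarboxylase (E1, subunits Bckdha and Bckdhb), an acyltransferase core (E2, Dbt) and a shared dihydrolipoamide dehydrogenase (E3, Dld). The kinase Bckdk phosphorylates E1 and switches the complex off, and the phosphatase Ppm1k removes the phosphate and switches it on. After the complex the routes part: Ivd and the methylcrotonyl-CoA carboxylase subunits Mccc1 and Mccc2 serve leucine, and Acadsb serves isoleucine.

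Libraries held 27835235 to 34700996 counts, so that 3 counts, taken as the floor of detection, corresponded to 0.0865 to 0.108 CPM (counts scaled to a library size of 1e+06). The members lay far above it, at 623 to 11440 counts in a library. Replicates of a group correlated at 0.978 to 0.988 (Pearson, log2 CPM), and no pair of them was alike within counting error (10.7 to 57.8 chi-square units per degree of freedom). Whether replicates are separate animals is not stated in the labels, and every p-value here is set by the scatter among the libraries alone, which may be technical. Cre replicate 1 without succinate and Cre replicate 3 with succinate stood apart: they had the largest scaling factors (TMM 1.09 and 1.05) and the most genes detected (19130 and 19127). Each also held the lowest level of 9 of the 10 members in its group. The genotype differences averaged over succinate and the succinate calls in Cre hearts are given with and without them. They were picked partly for these low levels and both are Cre, so leaving them out tends to raise Cre levels. An outlier test (Dixon) on each member and on the count ratios used below flagged 0 of 48 sets of 4 libraries. Cre replicate 3 with succinate correlated with the rest of its group at 0.985 to 0.988. Cre replicate 1 without succinate had the lowest correlations of its group, 0.978 to 0.980, against 0.981 to 0.985 among the others. Floxed replicate 2 with succinate, lowest for 8 members, was not treated in this way. The targeted gene Sucnr1 had 0 to 21 counts per library, 20 in all over the 8 floxed and 63 over the 8 Cre libraries. It was not lower in the hearts labelled Cre, and the tables do not show whether the counted part of the gene is the deleted part. Directions by genotype below therefore follow the labels. Transcripts that define cardiomyocytes were abundant in every library (Myh6 at 12384 to 27328 CPM). Markers of hepatocytes summed to at most 1.94 CPM and those of white adipocytes to at most 2.63 CPM.

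The start-site regions of 9 of the 10 members are in RefSeq's table for GRCm38.p6, each with 250 bases before and 50 after the start. Dbt has no entry there. 4 of them are shown: the phosphatase and the E1 beta and carboxylase subunits, whose transcripts were higher with succinate, and the kinase, which did not pass the test for succinate. Sequences read 5′ to 3′ on the gene's strand, and capitals mark matches on either strand to the motifs named after them.
Ppm1k, chr6:57535438-57535737, minus strand: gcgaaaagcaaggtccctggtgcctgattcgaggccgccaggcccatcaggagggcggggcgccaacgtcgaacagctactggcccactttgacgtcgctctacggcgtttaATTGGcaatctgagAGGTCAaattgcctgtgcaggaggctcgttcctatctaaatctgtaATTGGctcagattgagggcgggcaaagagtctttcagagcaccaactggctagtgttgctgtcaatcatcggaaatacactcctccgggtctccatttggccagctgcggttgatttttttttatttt
Bckdk, chr7:127903823-127904122, plus strand: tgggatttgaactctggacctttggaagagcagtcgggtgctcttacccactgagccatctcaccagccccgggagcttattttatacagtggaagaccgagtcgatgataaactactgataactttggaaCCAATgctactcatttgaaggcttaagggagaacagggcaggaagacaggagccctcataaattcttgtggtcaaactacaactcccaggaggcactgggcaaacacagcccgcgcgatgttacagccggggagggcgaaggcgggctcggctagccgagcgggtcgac
Bckdhb, chr9:83924887-83925186, plus strand: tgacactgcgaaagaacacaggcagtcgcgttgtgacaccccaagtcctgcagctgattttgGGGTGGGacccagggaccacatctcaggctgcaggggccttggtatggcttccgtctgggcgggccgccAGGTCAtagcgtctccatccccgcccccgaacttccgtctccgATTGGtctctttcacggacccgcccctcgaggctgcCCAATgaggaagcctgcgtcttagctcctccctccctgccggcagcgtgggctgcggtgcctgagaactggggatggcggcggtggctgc
Mccc2, chr13:100015590-100015889, minus strand: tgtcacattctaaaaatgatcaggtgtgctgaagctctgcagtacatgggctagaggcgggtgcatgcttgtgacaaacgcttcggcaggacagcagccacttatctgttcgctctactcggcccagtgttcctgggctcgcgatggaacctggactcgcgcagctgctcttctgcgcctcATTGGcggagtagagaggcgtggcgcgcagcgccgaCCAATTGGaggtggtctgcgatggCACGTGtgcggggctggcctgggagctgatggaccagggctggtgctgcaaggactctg

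The motif AGGTCA, the half-site of many nuclear receptors, occurred once in the Ppm1k region, 124 bases before the start, and once in the Bckdhb region, 119 bases before it. It is in 16.3% of the 32851 regions in the table, and no other member region held it. The longer form TCAAGGTCA, bound by estrogen-related receptors and present in 0.423% of regions, was in none of them. The box CCAAT was in 6 of the 9 genes' regions, against 37.4% of all regions: 2 matches in Ppm1k, 1 in Bckdk, 2 in Bckdhb (with 1 more at its second listed start), 4 in Ivd, 3 in Mccc1 and 3 in Mccc2, where 2 overlap. The motif CCCACCC, a core of Krüppel-like factor sites, was in Bckdhb, Ivd and Mccc1 and in 17.5% of all regions. The E-box CACGTG was in Mccc2 alone among the 9, 9 bases before the start, and in 7.15% of all regions. A match describes letters and not a bound site. Bckdk and Ppm1k, the opposing pair, share only the common CCAAT box among these motifs.

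Levels were compared between genes on the authors' FPKM scale, which divides by gene length. Bckdha was the most abundant member, at 138 FPKM (mean of 16 libraries; 99.8 to 164), and Ivd followed at 74.8 (59.9 to 90.8). Neither range overlapped its neighbours. Bcat2 (37.0; 27.8 to 45.5), Bckdk (29.2; 23.8 to 34.2), Mccc1 (28.3; 22.5 to 34.7) and Acadsb (26.5; 23.0 to 33.4) formed a middle band whose ranges overlapped. Within each library Bcat2 was the highest of this band, though barely in floxed replicate 2 without succinate (34.1647 against 34.1638 for Bckdk). The order of Bckdk, Mccc1 and Acadsb changed between libraries. Mccc2 (19.9), Bckdhb (16.6), Dbt (10.8) and Ppm1k (5.80; 3.62 to 8.87) came last, each overlapping the gene before it. The 2 E1 subunits, which form one enzyme, thus stood at 138 and 16.6 FPKM. The kinase stood above its opposing phosphatase in every library.

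**Figure D1:**
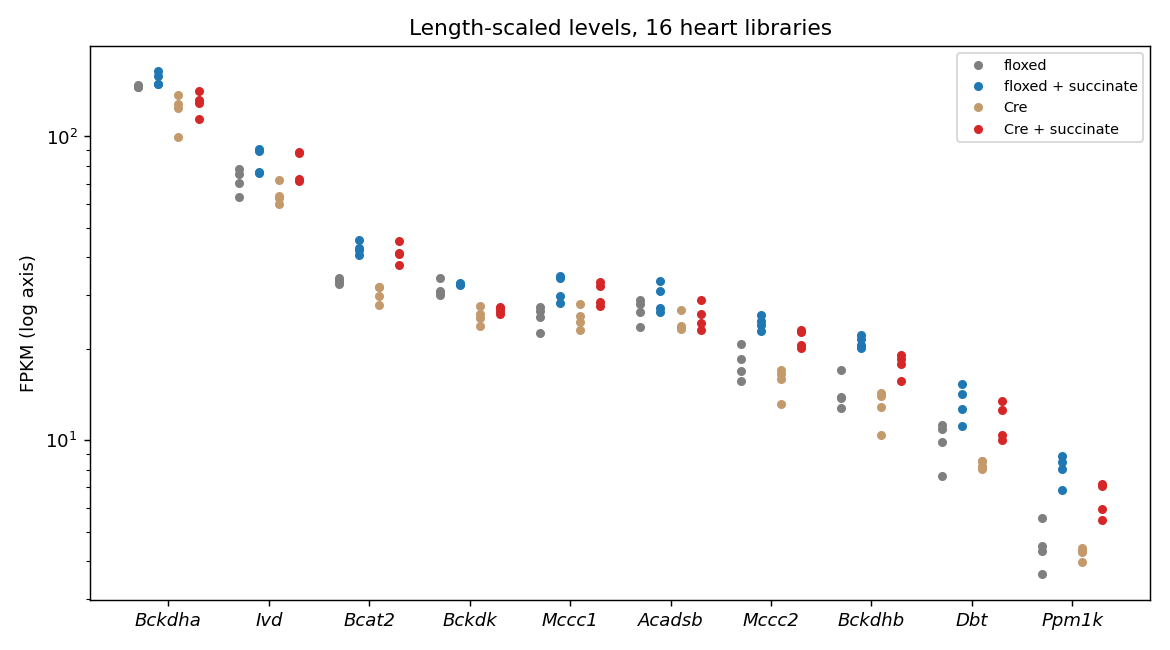
FPKM (log axis) of the 10 genes in 16 heart libraries, ordered by mean; each point is a library and colours give the 4 groups. Bckdha lies highest, at 99.8 to 164, and Ppm1k lowest, at 3.62 to 8.87.

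Succinate was compared within each genotype, on CPM scaled by TMM, with edgeR's quasi-likelihood test and Benjamini-Hochberg adjustment over all 14607 genes; a gene is said to rise or fall where the adjusted p was under 0.05. In floxed hearts 6 of the 10 members rose and none fell: Ppm1k, Bckdhb, Mccc2, Dbt, Bcat2 and Mccc1. Among all genes tested 13.1% were called in this comparison and 7.48% were called higher. In the same 6 genes every succinate library lay above every library without succinate, which held in that direction for 10.2% of all genes. In Cre hearts 3 members rose (Ppm1k, Mccc2 and Bcat2) against 0.917% of all genes called and 0.602% called higher. There 5 members had groups that did not overlap (these 3, Dbt and Bckdhb), against 4.80% of all genes. Averaged over the genotypes, 7 members rose, against 19.0% of genes called and 10.6% called higher. The 3 that did not pass were Bckdha, Bckdk and Acadsb. The averaged comparison uses the libraries of both others and is not independent of them. Because the 10 were chosen with earlier results of these data known, these counts beside the shares of all genes are a description. They are not an independent test of the pathway. The median log2 fold change of the 10 was 0.39 in floxed and 0.42 in Cre hearts, while that of all genes tested was 0.00 in each.

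Bcat2, the aminotransferase that opens the pathway, rose with succinate in both genotypes. Floxed hearts without succinate had 72.2, 73.4, 73.2 and 74.7 CPM, and those given it 93.7, 93.9, 102 and 100.2 CPM. Cre hearts had 64.6, 71.2, 65.7 and 60.5 CPM without succinate and 90.9, 94.4, 79.5 and 102 CPM with it. All 8 succinate libraries were above all 8 others, which 1.67% of all genes showed in that direction. The log2 fold change was 0.41 ± 0.08 (SE) in floxed hearts (adjusted p = 0.00327) and 0.49 ± 0.08 in Cre hearts (adjusted p = 0.00824). Of the members, Bcat2 alone was still called in Cre hearts when replicate 1 without and replicate 3 with succinate were left out (0.53, adjusted p = 0.0344). With the fit limited to the Cre groups its adjusted p was 0.0614.

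The subunits of the dehydrogenase complex did not move alike. Bckdhb, the E1 beta subunit, had 22.3, 23.4, 23.9 and 30.2 CPM in floxed hearts and 40.4, 36.1, 35.4 and 39.8 CPM with succinate. In Cre hearts it had 16.6, 25.2, 22.4 and 24.0 CPM without and 31.2, 34.3, 26.0 and 33.1 CPM with succinate. The groups were apart within each genotype. It rose 1.52-fold in floxed hearts (log2 0.60 ± 0.13, adjusted p = 0.00482), and its change in Cre hearts, 0.50 ± 0.13, missed the threshold (adjusted p = 0.0618). Dbt, the E2 core, had 35.4, 35.3, 31.7 and 25.1 CPM in floxed hearts and 51.8, 36.3, 46.6 and 43.6 CPM with succinate, where replicate 2 lay just above the highest untreated library. Cre hearts had 25.4, 27.0, 27.8 and 25.7 CPM without and 41.0, 33.6, 32.1 and 44.7 CPM with succinate. Its log2 change was 0.48 ± 0.13 in floxed (adjusted p = 0.0183) and 0.51 ± 0.13 in Cre hearts (adjusted p = 0.059). The floxed call for Dbt rested on single libraries: its adjusted p was 0.0519 to 0.0733 without floxed replicate 3 or 4, or without replicate 1 or 3 of the succinate group. In Cre hearts both genes passed under DESeq2 (adjusted p = 0.0187 for Bckdhb and 0.0158 for Dbt).

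Bckdha, the E1 alpha subunit, had 307, 298, 302 and 317 CPM in floxed hearts and 359, 314, 337 and 329.9 CPM with succinate, with one overlapping pair of libraries. Cre hearts had 193, 263, 288 and 264 CPM without and 272, 307, 228 and 284 CPM with succinate, and these ranges overlapped broadly. Its averaged log2 change was 0.12, with a 95% confidence interval from -0.04 to 0.29 (adjusted p = 0.303). In Cre hearts the change was 0.11 with all libraries and -0.01 without Cre replicate 1. The count ratio of Bckdha to Bckdhb, which needs no scaling between libraries, fell from 13.8, 12.7, 12.6 and 10.5 to 8.89, 8.69, 9.50 and 8.29 in floxed hearts. In Cre hearts it went from 11.6, 10.4, 12.8 and 11.0 to 8.71, 8.96, 8.76 and 8.57. No succinate library reached the lowest ratio without succinate. The mean log2 difference was -0.43, or 0.740-fold. An exact two-sided permutation test within genotype gave p = 0.000408, the smallest its 4900 relabellings allow, and an adjusted p of 0.000816 over the 4 ratio tests. The ratio sets Bckdhb, called for succinate in the same libraries, against Bckdha, which was not. Its test is therefore not independent of the tests of the single genes. On the FPKM scale the subunits stood 10.3 ± 1.14-fold (SD, n = 4) apart in floxed hearts and 7.32 ± 0.42-fold after succinate, and 9.50 ± 0.85-fold and 7.24 ± 0.14-fold in Cre hearts.

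The regulatory pair moved unequally. Ppm1k, the activating phosphatase, had 40.1, 48.3, 38.1 and 32.9 CPM in floxed hearts and 82.6, 61.7, 76.8 and 76.1 CPM with succinate. Cre hearts had 35.5, 35.9, 39.4 and 37.7 CPM without and 63.4, 50.5, 50.6 and 66.1 CPM with succinate. As for Bcat2, all 8 succinate libraries lay above all 8 others. Its rise was 1.86-fold in floxed hearts (log2 0.90 ± 0.12, adjusted p = 0.000214) and 1.55-fold in Cre hearts (0.63 ± 0.12, adjusted p = 0.0176). The Cre value was 0.66 (adjusted p = 0.0816) without the 2 libraries that stood apart, and its adjusted p was 0.0702 to 0.0798 without Cre replicate 1, or without replicate 1 or 4 of the Cre succinate group. Bckdk, the inactivating kinase, had 88.3, 94.9, 84.9 and 88.8 CPM in floxed hearts and 96.3, 94.0, 94.5 and 99.8 CPM with succinate. Cre hearts had 62.4, 79.9, 72.3 and 73.1 CPM without and 78.7, 80.6, 72.6 and 76.3 CPM with succinate. Its averaged log2 change was 0.10 (95% confidence interval -0.01 to 0.22, adjusted p = 0.196), so that a rise of more than 16.2% lay outside the interval.

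Kinase and phosphatase counts were set against each other within each library. The Bckdk to Ppm1k ratio of counts was 2.21, 1.97, 2.23 and 2.70 in floxed hearts and 1.17, 1.52, 1.23 and 1.31 with succinate. It was 1.76, 2.22, 1.84 and 1.94 in Cre hearts and 1.24, 1.60, 1.44 and 1.15 with succinate. The ratio was lower in each succinate library than in any library of either genotype without succinate. The mean log2 difference was -0.66, or 0.633-fold (exact two-sided permutation p = 0.000408, the smallest possible, adjusted p = 0.000816). Without the 2 Cre libraries that stood apart it was -0.70 (adjusted p = 0.00286). Genotype moved neither ratio past the threshold (log2 differences -0.09 for Bckdk to Ppm1k and -0.06 for Bckdha to Bckdhb, exact permutation test, adjusted p = 0.361 for each). For Bckdk to Ppm1k the average joined opposite signs, -0.23 without succinate and 0.05 with it, which were not tested separately. For Bckdha to Bckdhb the values were -0.11 and -0.01. As with Bckdha to Bckdhb, the succinate effect on Bckdk to Ppm1k is not independent of the call for Ppm1k in the same libraries. These ratios describe transcripts, and protein amounts and phosphorylation were not measured.

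**Figure D2:**
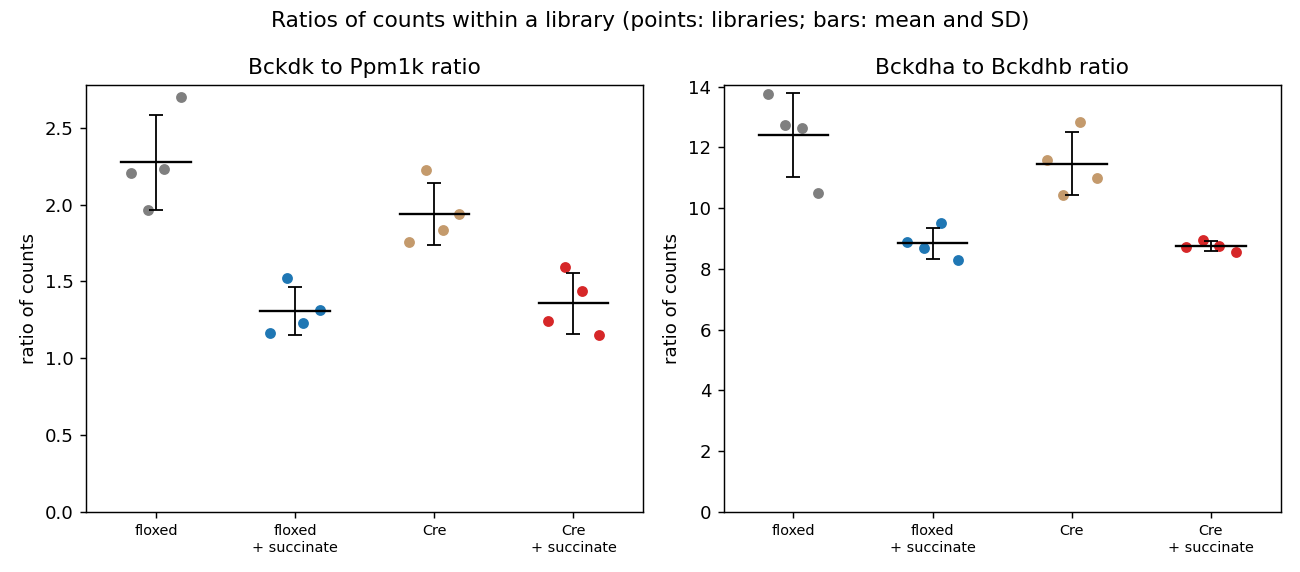
Ratio of counts within each library for Bckdk to Ppm1k (left) and Bckdha to Bckdhb (right) in the 4 groups; points are libraries and bars give the mean and SD. Succinate libraries lie below those without succinate in both panels, at 1.15 to 1.60 against 1.76 to 2.70 on the left.

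In the leucine arm both carboxylase subunits rose in floxed hearts. Mccc2, the beta subunit of methylcrotonyl-CoA carboxylase, had 36.0, 43.0, 38.9 and 33.7 CPM in floxed hearts and 57.0, 48.9, 53.0 and 53.8 CPM with succinate. In Cre hearts it had 25.7, 36.4, 34.9 and 33.2 CPM without and 44.0, 49.9, 40.7 and 50.3 CPM with succinate. The groups were apart in both genotypes, at 0.49 ± 0.11 (adjusted p = 0.00688) and 0.51 ± 0.11 (adjusted p = 0.031). The Cre call for Mccc2 was lost in 6 of the 16 fits that left out 1 library (floxed replicate 3, Cre replicate 1 or 4, or replicate 1, 2 or 4 of the Cre succinate group; adjusted p = 0.0504 to 0.144) and without the 2 libraries that stood apart (0.45, adjusted p = 0.109). Mccc1, the biotin-carrying alpha subunit, had 76.0, 80.1, 78.5 and 68.5 CPM in floxed hearts and 108, 84.9, 103 and 94.5 CPM with succinate. Cre hearts had 63.2, 77.6, 84.2 and 72.3 CPM without and 96.6, 85.8, 81.3 and 102 CPM with succinate, where 1 treated library fell inside the untreated range. Its change was 0.37 ± 0.10 in floxed (adjusted p = 0.0253) and 0.30 ± 0.10 in Cre hearts (adjusted p = 0.171). The floxed call for Mccc1 was lost when any of floxed replicates 1, 3 and 4, or replicate 1 or 3 of the succinate group, was left out (adjusted p = 0.0558 to 0.0887).

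Ivd, the isovaleryl-CoA dehydrogenase that acts before the carboxylase, had 271, 247, 279.5 and 232 CPM in floxed hearts and 337, 279, 333 and 290.2 CPM with succinate. Cre hearts had 199, 233, 259 and 224 CPM without and 324, 268, 249 and 327 CPM with succinate. In each genotype a treated library lay within the untreated range, and neither change passed (0.26 ± 0.11, adjusted p = 0.121, and 0.35 ± 0.11, adjusted p = 0.136). Averaged over genotypes Ivd rose by 0.31 ± 0.08 (adjusted p = 0.0103). Acadsb, the short/branched-chain acyl-CoA dehydrogenase of the isoleucine arm, had 93.9, 86.1, 95.6 and 80.0 CPM in floxed hearts and 116, 91.9, 105 and 93.3 CPM with succinate. Cre hearts had 71.8, 78.3, 89.4 and 78.2 CPM without and 87.2, 79.6, 77.6 and 99.6 CPM with succinate. The groups overlapped in both genotypes, and the averaged change of 0.15 did not pass (95% confidence interval 0.00 to 0.30, adjusted p = 0.142). Averaged over genotypes, the same 7 genes therefore rose by 1.24-fold (Ivd) to 1.70-fold (Ppm1k), and 7 members were called in every alternative fit and every fit that left out 1 library.

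**Figure D3:**
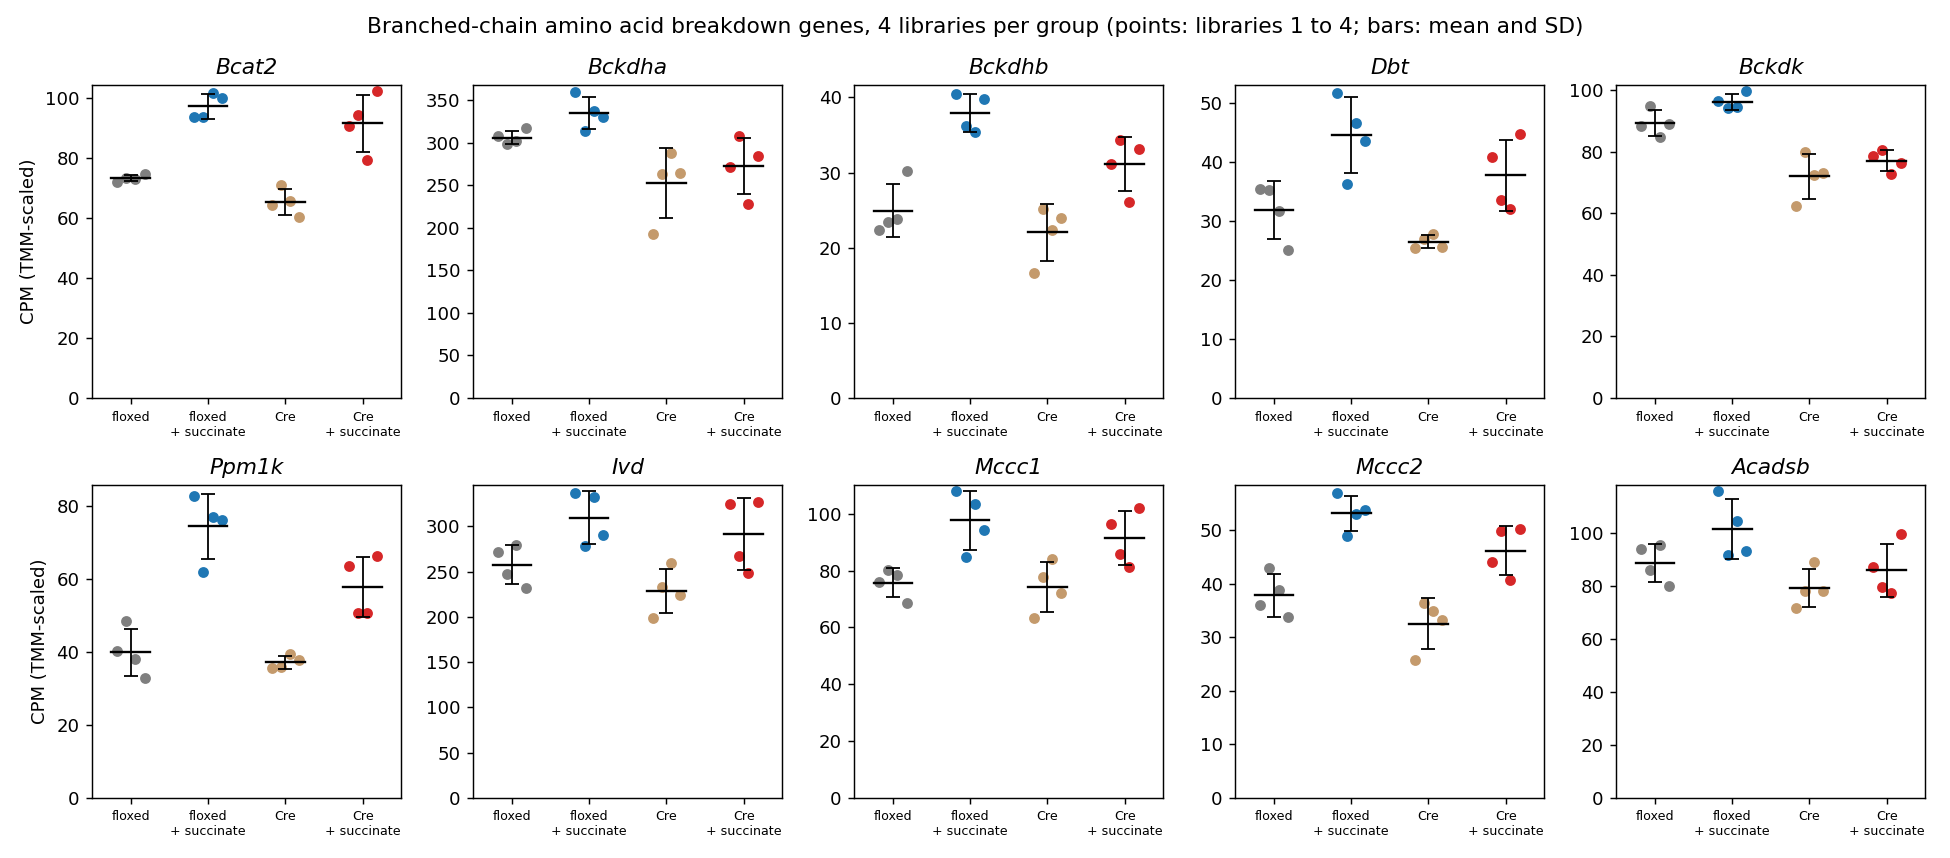
CPM (TMM-scaled, axes from 0) of each gene in the 4 groups; points are libraries 1 to 4 and bars give the mean and SD. Ppm1k and Bcat2 keep all succinate libraries above all others, while Bckdk is lower in all 8 Cre libraries (62.4 to 80.6) than in the floxed libraries (84.9 to 99.8).

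Whether succinate acted differently by genotype was tested with an interaction term. None of the 10 members passed, and neither did any gene tested (0 called, or 0% of 14607; 709 at an unadjusted p under 0.05; smallest adjusted p 0.93 with edgeR; DESeq2 called 4 genes, and limma voom and limma on FPKM called 0). The largest member difference was for Ppm1k, whose succinate change was 0.26 smaller in Cre than in floxed hearts on the log2 scale (-0.26 ± 0.17, 95% confidence interval -0.62 to 0.09, adjusted p = 0.97). For Bcat2 the interval ran from -0.16 to 0.31 and for Bckdk from -0.24 to 0.22. A gene called in floxed hearts and not in Cre hearts was therefore not shown to differ between them.

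**Figure D4:**
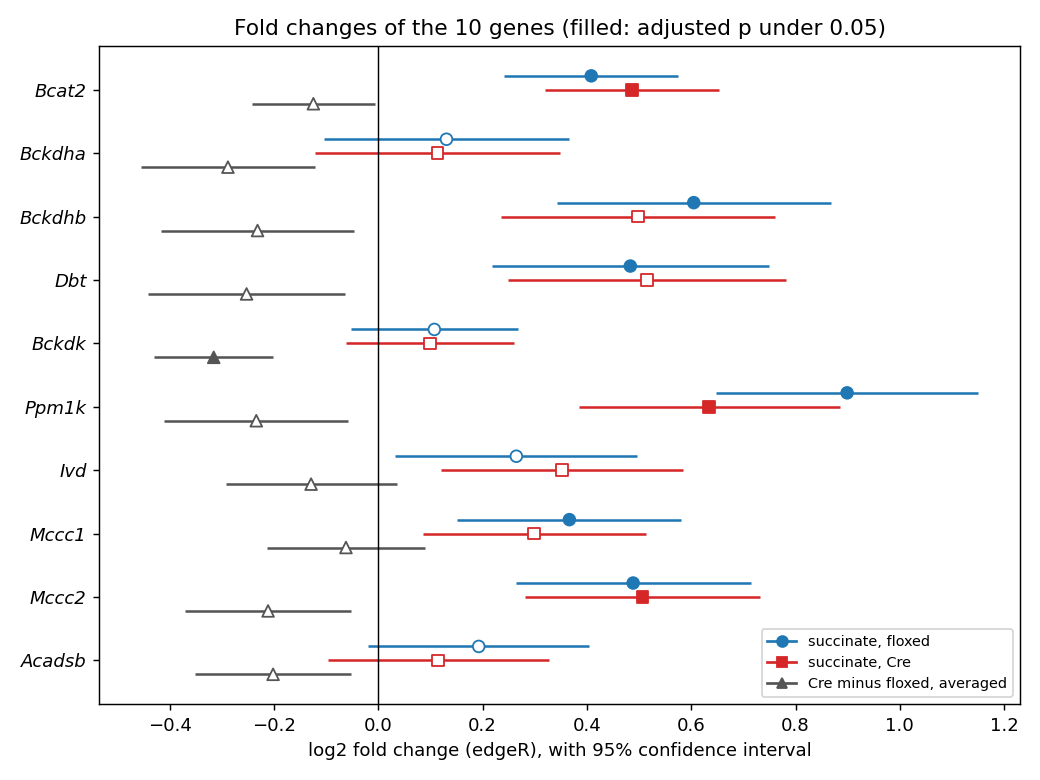
Log2 fold changes (edgeR) of the 10 genes for succinate in floxed and in Cre hearts and for genotype averaged over succinate; lines are 95% confidence intervals and filled symbols passed an adjusted p of 0.05. All succinate changes lie right of 0, from 0.10 to 0.90, all genotype changes left of it, and Bckdk is the filled genotype symbol.

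All 10 members had lower mean levels in hearts labelled Cre than in floxed hearts, both without succinate (log2 -0.03 to -0.31) and with it (-0.08 to -0.37). Without Cre replicate 1 the differences without succinate were 0.04 for Mccc1, which turned its sign, -0.07 for Bckdhb (-0.18 with it), -0.12 for Ivd (-0.17), -0.13 for Mccc2 (-0.22) and -0.17 for Bckdha (-0.28). That of Ppm1k, -0.10, was near 0 (-6.7e-05) without floxed replicate 2. With succinate, leaving out Cre replicate 3 moved Bcat2 from -0.09 to -0.02, Ivd from -0.08 to -0.02 and Mccc2 from -0.20 to -0.15. None passed the test in either comparison, where 0.110% and 0.691% of all genes were called. The medians of the 10 were -0.18 and -0.24. Groups did not overlap for Bcat2, Bckdha and Bckdk without succinate and for Bckdha, Bckdhb and Bckdk with it, against 2.33% and 3.54% of all genes that were lower without overlap. Bckdk was lower in every Cre library: its 8 Cre values, 62.4 to 80.6 CPM, were all below its 8 floxed values, 84.9 to 99.8 CPM, which held for 15 of the 14607 genes, or 0.103%. Its log2 difference was -0.31 ± 0.08 without succinate (adjusted p = 0.181) and -0.32 ± 0.08 with it (adjusted p = 0.0629). Both passed under DESeq2 (adjusted p = 0.0129 and 0.00328). The latter also passed under limma voom (adjusted p = 0.0239), and without Cre replicate 1 of the group not given succinate (adjusted p = 0.0254). A comparison of genotype averaged over succinate was added after these values were seen. In it 1.88% of all genes were called and 0.575% were called lower, and Bckdk was the only member called: 19.6% lower in Cre hearts (-0.32 ± 0.05, adjusted p = 0.0044), and -0.28 (adjusted p = 0.0164) without the 2 libraries that stood apart. Without them Bckdk was not called in either separate comparison (-0.25, adjusted p = 0.259, and -0.30, adjusted p = 0.108). Bckdha came next (-0.29 ± 0.08, adjusted p = 0.0713). That comparison shares its libraries with the 2 genotype comparisons above. The averaged difference of Ppm1k was -0.23 ± 0.08 (adjusted p = 0.186), which did not pass. The averaged differences of the other members shrank without the 2 libraries: Bckdha from -0.29 to -0.20, Bckdhb from -0.23 to -0.14, Mccc2 from -0.21 to -0.14, Ivd from -0.13 to -0.07 and Mccc1 from -0.06 to -0.0065. Bcat2 (-0.12 to -0.10), Dbt (-0.25 to -0.21), Ppm1k (-0.23 to -0.20) and Acadsb (-0.20 to -0.16) moved less.

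Several whole-library features moved with genotype as well. Each Cre library had more genes detected (18537 to 19130) than any floxed library (18038 to 18376). Of 6 tested skeletal muscle markers 4 were higher in Cre hearts when averaged over succinate, with Atp2a1, the fast-muscle calcium pump, 5.04 higher on the log2 scale, while the marker of adult fast muscle Myh1 reached at most 0.197 CPM. Of 4 tested atrial markers 2 were higher, and of 9 fibroblast markers all had positive changes and 1 was called. The 9 macrophage and 5 tested lymphocyte markers also all had positive changes, and 0 of them were called. Of 12 cardiomyocyte markers 0 were called, with a median of -0.05. Among all genes tested 1.88% were called in this comparison. The part of these in the lower member levels was not tested.

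Marker lists also moved with succinate. Summed CPM of 12 cardiomyocyte markers was 56572 to 63055 in floxed hearts and 67168 to 73603 with succinate, and 49680 to 60270 and 60054 to 73215 in Cre hearts. In floxed hearts 3 of the 12 rose (Myh6, Ryr2 and Tcap), 1 fell (Csrp3), and their median log2 change was 0.07, against 0.39 for the 10 members. In Cre hearts 1 of the 12 rose, 11 had positive changes and the median was 0.16, against 0.42 for the members, and the average over genotypes had a median of 0.11. Summed CPM of 7 atrial markers was 203 to 492 in floxed hearts and 88.8 to 118 with succinate, where 1 of the 4 tested fell (Nppa, atrial natriuretic peptide). In Cre hearts it was 388 to 1637 and 490 to 948, and none was called. Summed CPM of 9 macrophage markers was 467 to 670 in floxed hearts and 275 to 520 with succinate, where 5 of the 9 fell. In Cre hearts it was 522 to 749 and 343 to 587, and none was called. Genes of mitochondrial import, membranes and genome upkeep were taken as a transcript proxy for mitochondrial content, which was not itself measured. Of these 10 genes 0 were called in floxed hearts, 1 in Cre hearts (Timm44) and 2 on average (Timm44 and Immt), with medians of 0.09, 0.10 and 0.09. Their summed CPM was 2494 to 2661 in floxed hearts and 2715 to 2746 with succinate, without overlap. In Cre hearts it was 2260 to 2599 and 2447 to 2763, which overlapped. In whole heart tissue, fewer cells of a type and less RNA per cell cannot be told apart. The part of cell make-up in the members' changes was not tested.

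The rest of the pathway was taken from 47 further genes, all tested. In floxed hearts 11 rose and 0 fell, in Cre hearts 1 rose, and on average 19 rose and 1 fell, with medians of 0.22, 0.20 and 0.20. Among all genes tested 7.48%, 0.602% and 10.6% were called higher in these comparisons. Among carriers, Slc43a2, a plasma membrane transporter of large neutral amino acids, rose in both genotypes (0.89 ± 0.13, adjusted p = 0.000384, and 0.61 ± 0.13, adjusted p = 0.0287). Slc38a2, a carrier of small neutral amino acids, fell by 0.38 on average (adjusted p = 0.0459), and the other 6 carriers were not called for succinate. Dld, the E3 subunit shared by all keto acid dehydrogenases, rose in floxed hearts (0.44 ± 0.09, adjusted p = 0.00386), and Bcat1, the cytosolic aminotransferase, stayed near 1 CPM (group means 0.8 to 1.3). Further down the leucine arm Auh, the methylglutaconyl-CoA hydratase, rose by 0.40 in floxed hearts (adjusted p = 0.0185). No later isoleucine gene passed in either genotype, and Acat1, Echs1 and Hadha rose on average (0.26, 0.31 and 0.29). In the valine arm Aldh6a1, the methylmalonate-semialdehyde dehydrogenase, rose by 0.57 in floxed hearts (adjusted p = 0.00587), and Hibch, Hibadh and Echs1 rose on average.

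Isoleucine and valine end in propionyl-CoA. Of 8 genes of that route, Pcca, a propionyl-CoA carboxylase subunit (0.39), and Mmut, the methylmalonyl-CoA mutase that yields succinyl-CoA (0.56), rose in floxed hearts. On average 5 rose, adding Pccb, Mmab and Mmadhc. The acyl-CoA dehydrogenases Ivd and Acadsb pass electrons to the electron transfer flavoprotein. Etfa, one of its subunits, rose in floxed hearts (0.31, adjusted p = 0.0453), and so did Etfdh, which hands the electrons to ubiquinone (0.63, adjusted p = 0.00404). Among 12 regulators, Klf15, a transcription factor known to drive Bcat2 and related genes, rose by 0.36 (adjusted p = 0.0356) in floxed hearts. Sesn1, of the leucine-sensing sestrin family, rose by 0.51 and Deptor, a subunit that restrains mTOR, by 0.64. Ppargc1a, Ppara and Esrra did not pass. Genotype averaged over succinate called 2 of the 47, against 1.88% of all genes. Both were higher in Cre hearts: the carrier Slc7a5 (0.47, adjusted p = 0.0392) and Abat (0.72, adjusted p = 0.0255). The Abat average joined unequal values: 0.18 without succinate (adjusted p = 0.857) and 1.26 with it (adjusted p = 0.0117). In the comparison with succinate Abat was the only one of the 47 called, against 0.691% of all genes. Its succinate change was -0.60 in floxed hearts (adjusted p = 0.0957) and 0.48 in Cre hearts (adjusted p = 0.344), and its interaction did not pass (adjusted p = 0.93).

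**Figure D5:**
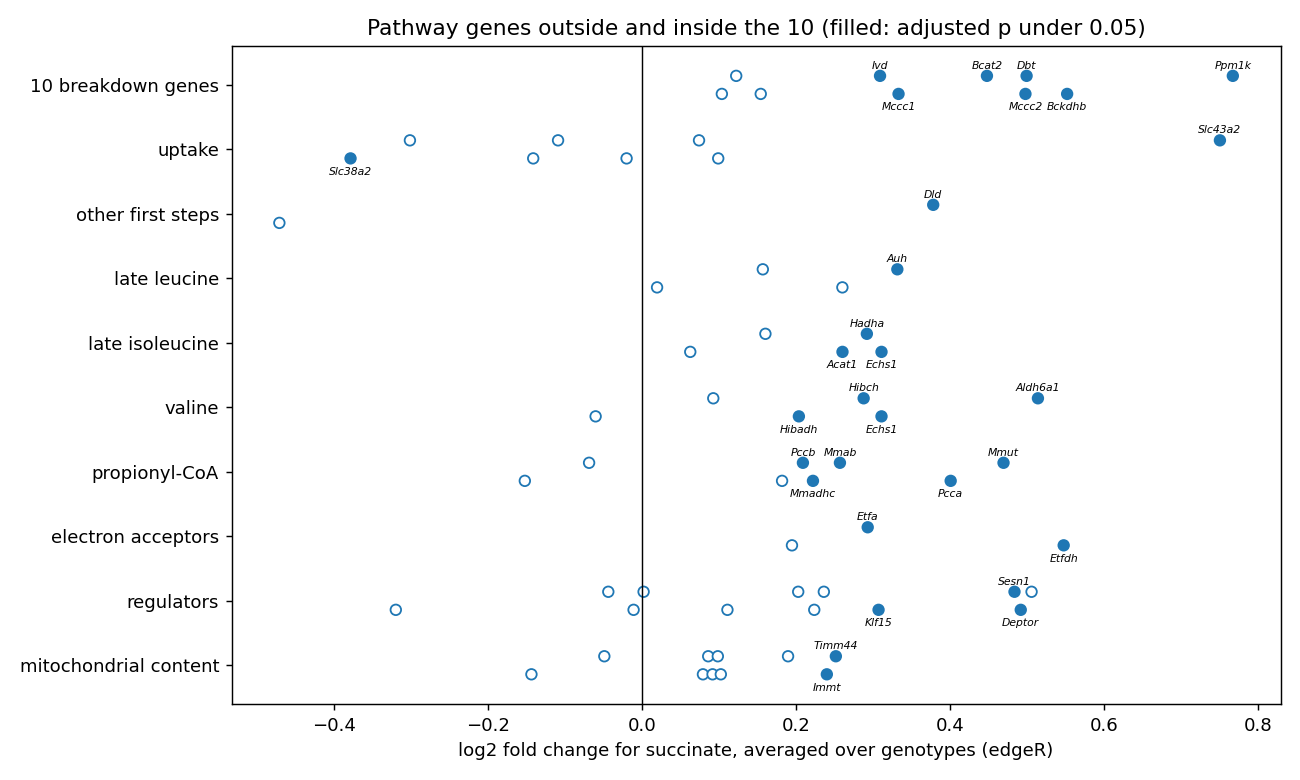
Log2 fold change for succinate averaged over genotypes (edgeR) for the 10 genes, the further pathway lists and the mitochondrial content list; each symbol is a gene, and filled, named symbols passed an adjusted p of 0.05. Within the 10 genes Ppm1k lies farthest right at 0.77 and 3 genes are unfilled; Echs1 stands in 2 lists.

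The pyruvate and oxoglutarate dehydrogenases, built on the same plan and sharing Dld, were set beside the branched-chain complex. Of their 13 genes 7 rose in floxed hearts, 2 in Cre hearts (Pdhx and Dlst) and 10 on average, against the same 7.48%, 0.602% and 10.6% of all genes called higher. Both E1 subunits of pyruvate dehydrogenase rose in floxed hearts, Pdha1 by 0.29 (adjusted p = 0.0422) and Pdhb by 0.38 (adjusted p = 0.0103), where of the branched-chain pair only Bckdhb did. The 95% confidence interval of Bckdha there, -0.10 to 0.37, includes the 0.29 of Pdha1, and a difference between the complexes was not tested. The phosphatases of pyruvate dehydrogenase, Pdp1 (0.49) and Pdp2 (1.05), rose as Ppm1k did. Its kinase Pdk4 rose as well (2.58 ± 0.63, adjusted p = 0.0174), with floxed hearts ranging from 213 to 1546 CPM without succinate and 3042 to 5250 CPM with it.

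Across the 16 libraries the members varied together. The 45 pairs of members had Pearson correlations of log2 CPM from 0.47 (Bckdk with Mccc1) to 0.94 (Dbt with Ppm1k), with a median of 0.78. After the group means were removed the median was 0.54, and 43 of the 45 were positive. These values share the libraries and their scaling and are given as a description. The shared movement was visible in single libraries. Among floxed hearts given succinate, replicate 1 had the highest value of 8 members and replicate 2 the lowest of 8. Among Cre hearts given succinate, replicate 4 had the highest of 7. Of 11183 candidate genes, those most like Ppm1k over the 16 libraries were Zranb3 (r = 0.969), Tnni3k (0.962) and Rbfox1 (0.960). Those most like Bcat2 were Aifm1 (0.947), Pdhb (0.941) and Gstm7 (0.928). Among those most like Bckdk were Me3 (0.937) and Khk (0.913). These correlations include the differences between groups. After the group means were removed they were 0.754 (Zranb3), 0.895 (Tnni3k) and 0.762 (Rbfox1) for Ppm1k. For Bcat2 they were then 0.721 (Aifm1), 0.711 (Pdhb) and 0.444 (Gstm7), and for Bckdk 0.745 (Me3) and 0.539 (Khk). Of the genes named here for likeness none is on the pathway lists except Pdhb, which stands among the comparison dehydrogenases.

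Some members overlap other genes in the GENCODE vM21 annotation of GRCm38: Bcat2 shares exonic sequence with 0610005C13Rik (0 to 11 counts per library), Mccc1 with Mccc1os (4 to 35 counts) and Bckdha with B3gnt8 (35 to 113 counts). No source used here says that strand was used in counting, and reads in the shared parts cannot be assigned with certainty. These neighbours had few counts beside those of Bcat2, Mccc1 and Bckdha, which does not show how many reads fell in the shared parts.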

How the data were processed

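Heart RNA was sequenced as 16 libraries in 4 groups of 4. The deposited table of gene counts holds whole, unnormalised reads per gene made by the authors. The submitters' processing notes name fastp, HISAT2, HTSeq, R 3.2.0, DESeq2 and the build GRCm39, without settings. The deposited FPKM table holds the authors' length-scaled values. They were checked against the counts: each gene's FPKM is its count divided by the library total and by 1 length, with a relative spread of at most 1.2e-15.

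Counts were tested in R 4.3.3 with edgeR 4.0.16 (filterByExpr with a minimum count of 10, TMM scaling, robust quasi-likelihood F-test on 4 group means with 12 residual degrees of freedom) and adjusted by Benjamini-Hochberg over 14607 genes. Confidence intervals are the estimate and its standard error with the fit's t quantile, at 95%. Ratios of 2 members were tested by exact permutation of labels within strata. Alternatives used DESeq2 1.42.0 and limma 3.58.1, other filters and scalings, a replicate block, and fits without each library. For limma on FPKM, values were log2(FPKM + 1) or log2(FPKM + 0.1). The code was tested on simulated data.

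The members and all gene lists were chosen with earlier results of these data known. The named genes are the 10 members, the listed pathway and comparison genes past the threshold in a succinate comparison or their average, and the 3 genes most correlated with Ppm1k, Bcat2 and Bckdk, of which 1 is not reported here. Genes named beyond that (such as Slc7a5, Abat, the markers and genes that did not pass) were chosen after their values were seen. The genotype comparison averaged over succinate and the fits without 2 libraries were also added after the values were seen. Promoter sequences are RefSeq's on GRCm38.p6, not the authors' build, and enter no test.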

Additional observations from a re-analysis of the deposited data

How the results depend on the processing

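The 7 calls for succinate averaged over genotypes were made in every alternative. For the 6 calls in floxed hearts, fits without 1 library gave 4 to 6 member calls and 1018 to 2106 genes, and limma voom called 2925 genes. The 3 calls in Cre hearts were 5 with no low-count filter and with DESeq2, 1 when only the Cre groups were fitted, and 1 to 5 in fits without 1 library. Genes called in Cre hearts, 134 in all, were 46 with only those groups, 488 with DESeq2 and 22 to 183 in fits without 1 library. Without Cre replicate 1 and replicate 3 of the Cre succinate group, both chosen after seeing the data, 1 member and 7 genes were called in Cre hearts. The same fit called 1780 genes for succinate on average, 6 and 59 for genotype without and with succinate, and 104 for genotype averaged. Fits without 1 library called 2015 to 2899 genes for succinate on average.

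For genotype without succinate, DESeq2 called 1 member (Bckdk) and 90 genes, only the groups compared 3 genes, FPKM with a mean of at least 1 called 7, and fits without 1 library called 0 members and 4 to 23 genes. With succinate, DESeq2, limma voom and log2(FPKM + 0.1) called 1 member each (Bckdk, adjusted p = 0.00328, 0.0239 and 0.0499) and fits without 1 library 0 to 1. Genes called were 327 with DESeq2, 190 with voom, 67 on log2(FPKM + 1), 51 with a mean FPKM of at least 1, and 44 to 134 in fits without 1 library. Averaged over succinate, 2 members (Bckdk and Bckdha) were called by DESeq2, voom and all 3 FPKM fits, and 1 to 2 in fits without 1 library. Genes were 603, 418 and, with a mean FPKM of at least 1, 176, and 156 to 308 in fits without 1 library. DESeq2 called 4 genes for the interaction.

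Signs turned where values lay near 0. The interaction of Bckdha was 0.00222, 0.00239 and 0.00222 and that of Bckdk 0.00556, 0.00611 and 0.00556 in the 3 FPKM fits, and that of Mccc2 was -0.013 with voom and -0.030 without the 2 libraries. In fits without 1 library the interaction ran from -0.13 to 0.062 for Bckdha, from -0.079 to 0.047 for Bckdk, from -0.059 to 0.13 for Dbt and from -0.088 to 0.077 for Mccc2. In the same fits Bckdha's succinate change in Cre hearts ran from -0.011 to 0.18 and Mccc1's genotype difference without succinate from -0.094 to 0.039, which was also its value without the 2 libraries. The ratio effects of succinate ranged from -0.70 to -0.62 and from -0.47 to -0.41 in fits without 1 library. Of the genes called in floxed hearts 57.0% were higher on counts and 43.3% to 47.2% on FPKM, and 55.6% against 42.1% to 43.8% on average.

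Replicate numbers did not pair the samples: of 24 same-numbered pairs across groups 3 had deviations correlated above 0.1 and 5 correlated best with their own number. With a replicate block, 6 members were called in floxed and 4 in Cre hearts (adding Bckdhb), with 1903 and 136 genes, and the ratio effects were -0.66 and -0.43.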
